A study of Mus musculus with 24 samples.

Results

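The 10 genes described here encode factors that sense stalled ribosomes or free them from the mRNA. They were chosen by name: the GTPases Gtpbp1, Gtpbp2 and Hbs1l with the Hbs1l partner Pelo, the sensors Gcn1, Eif2ak4 (the kinase GCN2), Map3k20 (the kinase ZAK) and Zfp598, and the nascent-chain factors Nemf and Ltn1. All 10 were found among the 55469 genes of each table, and all 10 passed the filter on low values (a mean of at least 10 normalised counts) in both tissues. The data were RNA-seq of total RNA from brain and liver of C57BL/6N mice, with 3 mice in each of 4 genotypes per tissue. The methods of the study describe male mice, while its reporting summary states that both sexes were used. The genotypes were WT and mice homozygous for the CRISPR-Cas9 deletion of a single nuclear gene for phenylalanine tRNA, either tRNA-Phe-1-1-/-, or tRNA-Phe-2-1-/-, or else tRNA-Phe-3-1-/-. The comparison asks whether loss of one such gene moved the mRNAs of these factors. The mutant mice keep the other tRNA-Phe genes. The mice of the study are described as 10 weeks old, the brain region is not given in the sources used here, and the deleted tRNA genes themselves were not analysed here.

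A ribosome that waits for a scarce charged tRNA can be struck by the ribosome behind it. The collided pair is bound by Zfp598, a ubiquitin ligase that marks the small subunit, by Gcn1, which activates the eIF2α kinase Eif2ak4, and by Map3k20, which signals to the p38 and JNK kinases. Pelo and Hbs1l are relatives of the termination factors eRF1 and eRF3 and, with Abce1, split ribosomes that have halted. Nemf then binds the large subunit that still holds a nascent chain, and Ltn1 (listerin) ubiquitinates that chain. Gtpbp2 is known from mice in which its loss, together with a mutated brain tRNA-Arg of the C57BL/6J strain, stalls ribosomes and causes neurodegeneration, and Gtpbp1 is its close relative. The genes for phenylalanine tRNA serve both phenylalanine codons, TTT and TTC.

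In the liver, Pelo mRNA was higher in tRNA-Phe-1-1-/- than in WT mice, and this was the only one of the 60 knockout against WT values (10 genes, 3 knockouts, 2 tissues) with an adjusted p under 0.05 in limma. Such a value is called significant below. No member was significant in the brain or in the comparisons among knockouts. The share of significant members in tRNA-Phe-1-1-/- livers, 1 of 10, has to be read against 17.3% of all 15856 genes tested there, so it says nothing particular about these genes. The 95% intervals lay within a 2-fold change in either direction for 59 of the 60 values and within a 1.5-fold change for 52. With 3 mice against 3, changes in these mRNAs beyond 2-fold were therefore outside the intervals for every member but Pelo in tRNA-Phe-1-1-/- livers, while smaller ones were often not detectable.

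Recovered counts assigned to genes summed to 30365760 to 46225360 per brain library and 32276896 to 51584522 per liver library. What was not assigned to a gene is outside these sums. Neuron and astrocyte markers marked the brain, and all 6 hepatocyte markers the liver. Some marker sums moved with genotype. In tRNA-Phe-1-1-/- brains the 5 oligodendrocyte markers summed to 36656 to 67629 normalised counts, against 95001 to 112111 in WT, with none at 0. The 5 erythroid markers summed to 7588 to 9630.5 in those brains against 15395 to 28255 in WT. In tRNA-Phe-1-1-/- livers the erythroid sum was 11566 to 13839.9 against 19732 to 26031 in WT, the endothelial sum 7640 to 10382 against 10579 to 11800 and the hepatocyte sum 1949330 to 2389132 against 2490811 to 3051036. In tRNA-Phe-2-1-/- livers the hepatocyte sum was also below WT, at 2085215 to 2357320. The endothelial sum there was above WT, at 12013 to 13079. In tRNA-Phe-3-1-/- livers the endothelial sum (12210 to 13945) and the erythroid sum (26855 to 33318) were above WT. In tRNA-Phe-3-1-/- brains the astrocyte sum was 104885 to 118665 against 125751 to 153451 in WT. The stellate and fibroblast sum there was 8761.5 to 10982 against 6206 to 7612. In tRNA-Phe-1-1-/- brains the endothelial sum was 1368 to 1449.5 against 1472 to 1538 in WT. The leukocyte sum in tRNA-Phe-2-1-/- livers was 592 to 606 against 672 to 940 in WT. In such sums the most abundant marker of a list weighs most. The part of these shifts in the results below was not tested, and in such bulk samples fewer cells of a type and less RNA per cell cannot be told apart.

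Pelo (Pelota, an endonuclease-like relative of eRF1 without its peptide-release motif; chromosome 13, 115088355 to 115090158, minus strand, GRCm38.p6) had normalised counts of 338, 285 and 253 in the 3 WT livers. The tRNA-Phe-1-1-/- livers had 529.8, 446 and 502, all above the highest WT liver. The difference was 1.69-fold (95% interval 1.26 to 2.27) or 0.76 ± 0.19 (SE) on the log2(normalised count + 1) scale, with an adjusted p of 0.0201 (limma, higher in 3 of 3 samples). This call was lost when WT replicate B, WT replicate C or tRNA-Phe-1-1-/- replicate A was left out, with log2 differences of 0.75, 0.66 and 0.71 and adjusted p of 0.0582, 0.0835 and 0.0724. It was kept in 20 of 23 alternative analyses, and over those that left out 1 replicate the log2 difference ran from 0.66 to 0.87.

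The means of the other knockout livers lay between these groups for Pelo. tRNA-Phe-2-1-/- livers had 416, 349 and 413, again all above WT, with a log2 difference of 0.43 (95% interval 0.011 to 0.85) and an adjusted p of 0.326. tRNA-Phe-3-1-/- livers had 319.8, 512 and 295, where replicate B stood with the tRNA-Phe-1-1-/- samples and the rest stood with WT (0.33, adjusted p = 0.438). Without that replicate, tRNA-Phe-1-1-/- livers exceeded tRNA-Phe-3-1-/- livers by 0.68 with an adjusted p of 0.0159, against 0.43 and 0.149 with it. This was the only 1 of 23 alternative analyses to call that contrast, and the adjusted p ran up to 0.396. Brain values did not show the liver's order. WT brains had 298, 293 and 313 and tRNA-Phe-1-1-/- brains 301, 318 and 305, a log2 difference of 0.033 (95% interval -0.19 to 0.26) with an adjusted p of 0.906.

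Pelo lies inside Itga1, the gene of the integrin α1 subunit, on the same strand, so reads of the host transcript that cross it could be assigned to Pelo. Itga1 counts were 2381, 2337 and 2282 in WT livers and 2666, 2745 and 2918 in tRNA-Phe-1-1-/- livers. They too did not overlap, with an adjusted p of 0.0516 and a log2 difference of 0.25 ± 0.080 (SE), smaller than that of Pelo on this scale. In counts the rise was larger for Itga1, whose mean went from 2333 to 2776, against 292 to 493 for Pelo. In the brain Itga1 counts were 722, 666 and 670.4 in WT and 533, 623 and 525 in tRNA-Phe-1-1-/- mice, a log2 difference of -0.29 (adjusted p = 0.208). Another annotated gene of the same strand that overlaps both, Gm49395, held 32.2 to 44.1 normalised counts in WT livers and 42.3 to 60.4 in tRNA-Phe-1-1-/- livers. How far these genes share reads with Pelo was not tested.

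**Figure D1:**
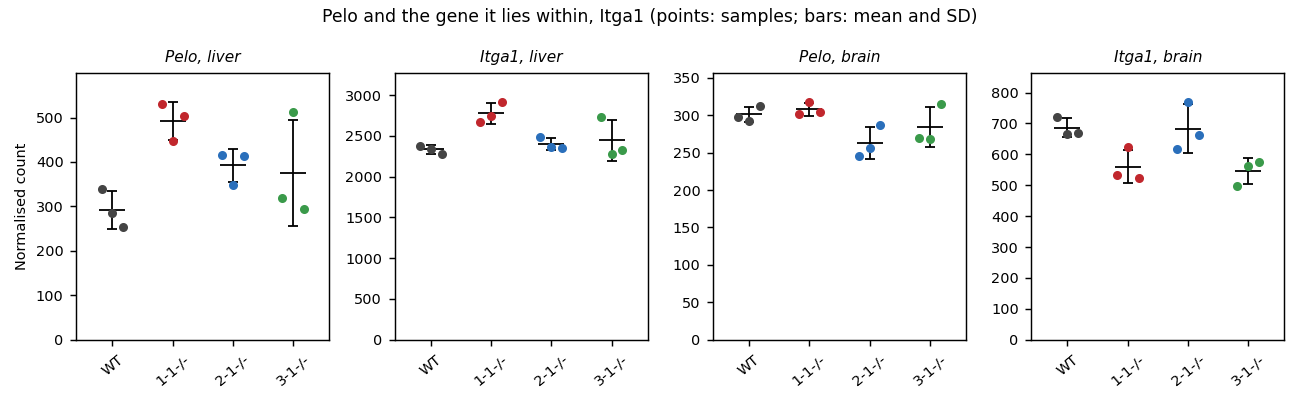
Normalised counts (vertical axis, from 0) of Pelo and of Itga1, the gene it lies within, by genotype (horizontal axis) in liver and brain; each point is 1 mouse and the bars are the mean and SD of 3. The 3 tRNA-Phe-1-1-/- livers lie above the 3 WT livers for Pelo (446 to 529.8 against 253 to 338) and for Itga1, while in the brain the Pelo points of these groups mix.

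The 250 bases before the RefSeq start sites of Pelo and of Gtpbp2 are given here because these members had the lowest p across the 4 genotypes in liver and brain. Both are written 5′ to 3′ on the strand of the gene, in GRCm38.p6. Pelo's window is chr13:115090159-115090408 (minus strand) and that of Gtpbp2 is chr17:46160782-46161031 (plus strand), which RefSeq places downstream of the outermost start of that gene. Capitals mark a match to 1 of the motifs named after them, here CCACG read on the opposite strand.
Pelo: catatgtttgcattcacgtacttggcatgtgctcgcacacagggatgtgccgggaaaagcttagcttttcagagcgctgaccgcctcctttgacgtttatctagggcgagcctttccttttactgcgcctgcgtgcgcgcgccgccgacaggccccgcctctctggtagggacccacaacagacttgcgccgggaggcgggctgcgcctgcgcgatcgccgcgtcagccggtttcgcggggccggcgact
Gtpbp2: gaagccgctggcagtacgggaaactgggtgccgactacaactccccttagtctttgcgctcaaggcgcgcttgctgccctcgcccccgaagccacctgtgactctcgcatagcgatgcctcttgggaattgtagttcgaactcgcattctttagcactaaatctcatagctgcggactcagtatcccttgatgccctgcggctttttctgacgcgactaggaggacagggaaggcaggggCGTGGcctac
The Pelo window held 29 CpG dinucleotides and 63.6% G or C, and that of Gtpbp2 17 and 57.6%. Over the 12 RefSeq windows of the 10 genes, from 250 bases before to 50 after the start, the median was 22 CpG and 61.3% G or C, against 7 and 53% over 32544 RefSeq windows of this kind. The C/EBP-ATF response element (TGATGNAAN), which ATF4 binds downstream of Eif2ak4, occurred on neither strand for any member, against 3.9% of all windows. Likewise the cAMP response element (TGACGTCA, 1.8% of windows) and the heat shock repeat (GAANNTTC, 7.89%) matched none. The CCAAT box (CCAAT) was found for 4 members, Gtpbp1, Ltn1, Map3k20 and Nemf, and in 37.4% of windows. The tail of the ER stress response element (CCACG) was found for 5 members, Gcn1, Gtpbp2, Hbs1l, Ltn1 and Map3k20, and in 33% of windows. These are matches of letters in a short window and do not show binding.

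Among the other genes of the splitting step, Hbs1l, the GTPase that delivers Pelo (chromosome 10, 21295979 to 21368889, plus strand), was not significant in any comparison. Liver counts of Hbs1l were 2639, 2952 and 2677 in WT and 2720.5, 2896 and 2494 in tRNA-Phe-1-1-/- mice, which overlapped (log2 difference -0.029 (95% interval -0.21 to 0.15), adjusted p = 0.848). Its interval there allows no more than an increase of 0.15. In the brain, tRNA-Phe-3-1-/- mice had 1802, 1781 and 1929 against 2074, 2108 and 2081 in WT, all below WT at a log2 difference of -0.19 (95% interval -0.32 to -0.052), with an adjusted p of 0.267. All 3 tRNA-Phe-3-1-/- brains were also below the tRNA-Phe-1-1-/- brains (2172, 2084 and 2047). That contrast, 0.19 for tRNA-Phe-1-1-/- over tRNA-Phe-3-1-/-, had an adjusted p of 0.119 in limma and 0.0366 with DESeq2 on the recovered reads. DESeq2 alone called it among 23 alternative analyses, and the adjusted p ran up to 0.265.

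Gtpbp2 (chromosome 17, 46159227 to 46169370, plus strand) had the lowest p of all members in the brain. Its counts were 1664, 1598 and 1879 in WT and 2177, 2094 and 2037 in tRNA-Phe-1-1-/- brains, where each knockout sample exceeded each WT sample. The log2 difference was 0.30 (95% interval 0.12 to 0.48) with an adjusted p of 0.116 in limma and 0.0313 with DESeq2. DESeq2 was the only 1 of 23 alternative analyses to call it, and the adjusted p ran up to 0.275. tRNA-Phe-2-1-/- brains had 1899.8, 2012 and 1878 and tRNA-Phe-3-1-/- brains 1724, 1710.5 and 1477, the lowest of the 4 groups by its mean. From tRNA-Phe-3-1-/- to tRNA-Phe-1-1-/- brains the difference was 0.36 (95% interval 0.18 to 0.55), and its adjusted p of 0.0506 stood just above the threshold (0.0493 with a pseudocount of 5, 0.0439 with a minimum mean of 50 and 0.00347 with DESeq2). Only these 3 of 23 alternative analyses called it, and 0 of the 12 that left out 1 replicate. Its adjusted p ran up to 0.171.

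Liver counts of Gtpbp2 were 1099, 1007 and 1031 in WT and 1138, 1480.3 and 1292 in tRNA-Phe-1-1-/- mice, also without overlap. The log2 difference of 0.31 (95% interval 0.085 to 0.54) was close to that in the brain, with an adjusted p of 0.0594 in limma and 0.0331 with DESeq2. It reached 0.0331 in limma as well without replicate A of tRNA-Phe-1-1-/- (log2 difference 0.40). Only these 2 of 23 alternative analyses called it, and over all of them the adjusted p ran up to 0.1745. All tRNA-Phe-2-1-/- livers (1113, 1133 and 1165) were above WT as well, at a log2 difference of 0.12 (adjusted p = 0.606). tRNA-Phe-3-1-/- livers had 1287, 1237 and 1079 and overlapped WT.

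Gtpbp1, the paralogue of Gtpbp2 (chromosome 15, 79690001 to 79721479, plus strand), had 1479, 1656 and 1385 in WT and 1690.1, 1664 and 1774 in tRNA-Phe-1-1-/- brains. The tRNA-Phe-1-1-/- brains stood above WT without overlap, at 0.19 (95% interval -0.081 to 0.45) and an adjusted p of 0.493. tRNA-Phe-3-1-/- brains ranged from 1142 to 1611, so that Gtpbp1 and Gtpbp2 both had their highest mean in tRNA-Phe-1-1-/- and their lowest in tRNA-Phe-3-1-/- brains. This order was not particular to them. Hbs1l and Ltn1 also had their highest mean in tRNA-Phe-1-1-/- (2101 and 3273) and their lowest in tRNA-Phe-3-1-/- brains (1837 and 2916). In the liver Gtpbp1 had 749, 563 and 620.0 in WT and 767, 746 and 875 in tRNA-Phe-1-1-/- mice, where WT replicate A reached into the knockout range (0.31, adjusted p = 0.131). Its contrast of tRNA-Phe-1-1-/- with tRNA-Phe-3-1-/- livers, 0.33 with an adjusted p of 0.112, was significant without replicate B of tRNA-Phe-3-1-/- (0.45, adjusted p = 0.049). That was 1 of 23 alternative analyses, over which the adjusted p ran up to 0.3055.

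**Figure D2:**
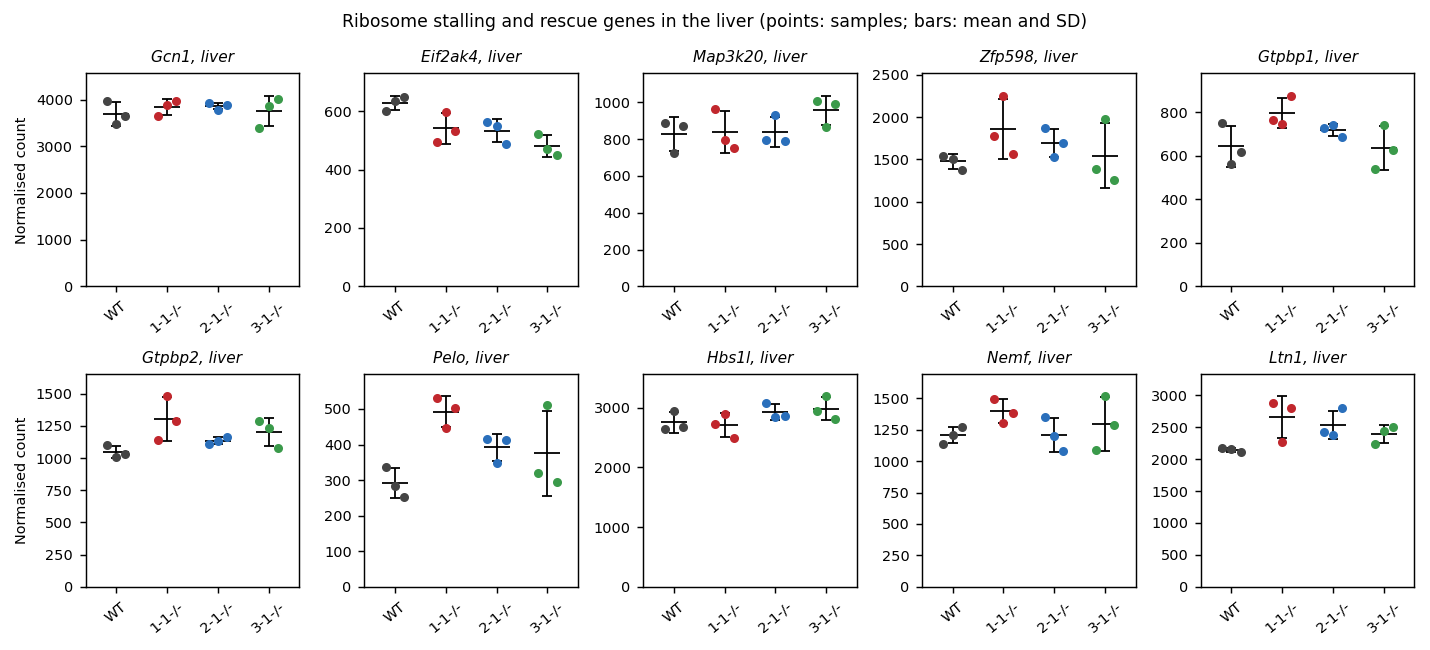
Normalised counts (vertical axes, from 0, one scale per gene) of the 10 genes in the 12 livers by genotype; points are mice and bars the mean and SD of 3. Pelo is highest in tRNA-Phe-1-1-/- livers, every knockout liver lies below every WT liver for Eif2ak4, and tRNA-Phe-3-1-/- replicate B is the highest of its group for Pelo, Zfp598, Nemf, Gtpbp1 and Hbs1l.

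Of the sensors, Eif2ak4 (chromosome 2, 118388583 to 118475234, plus strand) was lower than WT in every knockout liver. Its counts were 601, 634 and 647 in WT, 493, 599 and 532 in tRNA-Phe-1-1-/-, 564, 548 and 488 in tRNA-Phe-2-1-/- and 522, 470.3 and 450.4 in tRNA-Phe-3-1-/- livers. No knockout sample reached the lowest WT value, but the 3 comparisons share these WT mice and none was significant in limma. How many of all genes have such an order was not counted. The log2 differences were -0.22, -0.24 and -0.39, with adjusted p of 0.174, 0.32 and 0.102. With DESeq2 the tRNA-Phe-3-1-/- value had an adjusted p of 0.0241, the only call among 23 alternative analyses (adjusted p up to 0.2925). Brain counts did not share this order, with 981 ± 95.6 (SD, n = 3) in WT and 1079.7 ± 139 in tRNA-Phe-3-1-/- brains. Eif2ak4 overlaps Srp14 on the opposite strand, and the reads were assigned by strand.

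Gcn1, the large scaffold that hands the stall signal to Eif2ak4 (chromosome 5, 115565117 to 115622654, plus strand), differed little by genotype in the liver. Counts were 3692 ± 249 in WT and 3835 ± 167 in tRNA-Phe-1-1-/- livers (SD, n = 3), and the log2 difference of 0.056 (95% interval -0.12 to 0.23) had the narrowest interval of the 10 genes. The interval leaves room for neither an increase above 0.23 nor a decrease below -0.12. Gcn1 in tRNA-Phe-2-1-/- brains ranged from 3451 to 4549 against 3069 to 3665 in WT (0.22, adjusted p = 0.906).

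Map3k20 (chromosome 2, 72285637 to 72442610, plus strand) was the member with the largest difference in the brain. Counts were 536, 494 and 397 in WT and 363, 303 and 316 in tRNA-Phe-1-1-/- brains, all below the lowest WT brain. The log2 difference was -0.53 (95% interval -0.95 to -0.11) with an adjusted p of 0.206. tRNA-Phe-3-1-/- brains were widely spread at 367, 545 and 669.5, and their contrast with tRNA-Phe-1-1-/- (-0.65 for tRNA-Phe-1-1-/- over tRNA-Phe-3-1-/-, adjusted p = 0.106) became significant when replicate A, the lowest of them, was left out (-0.89, adjusted p = 0.0365) or with DESeq2 (-0.69, adjusted p = 0.0187). Only these 2 of 23 alternative analyses called that contrast, and its adjusted p ran up to 0.291. The oligodendrocyte marker sum was lower in the same tRNA-Phe-1-1-/- brains. Its part in the Map3k20 values was not tested. In the liver Map3k20 counts of WT (723 to 889) and tRNA-Phe-1-1-/- (750.1 to 965) overlapped, at 0.013 (95% interval -0.26 to 0.28).

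Zfp598 (chromosome 17, 24669687 to 24682023, plus strand) had 932, 775 and 884 in WT and 1000.3, 1154 and 1178 in tRNA-Phe-1-1-/- brains, where all knockout samples were above WT by a log2 difference of 0.36 (95% interval 0.12 to 0.61) and an adjusted p of 0.149. The liver difference was of like size, 0.32, but less even, with 1545, 1505 and 1375 in WT and 1775, 2247 and 1558 in tRNA-Phe-1-1-/- livers (adjusted p = 0.22). These liver samples also did not overlap, and tRNA-Phe-1-1-/- replicate C lay just above the highest WT sample.

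**Figure D3:**
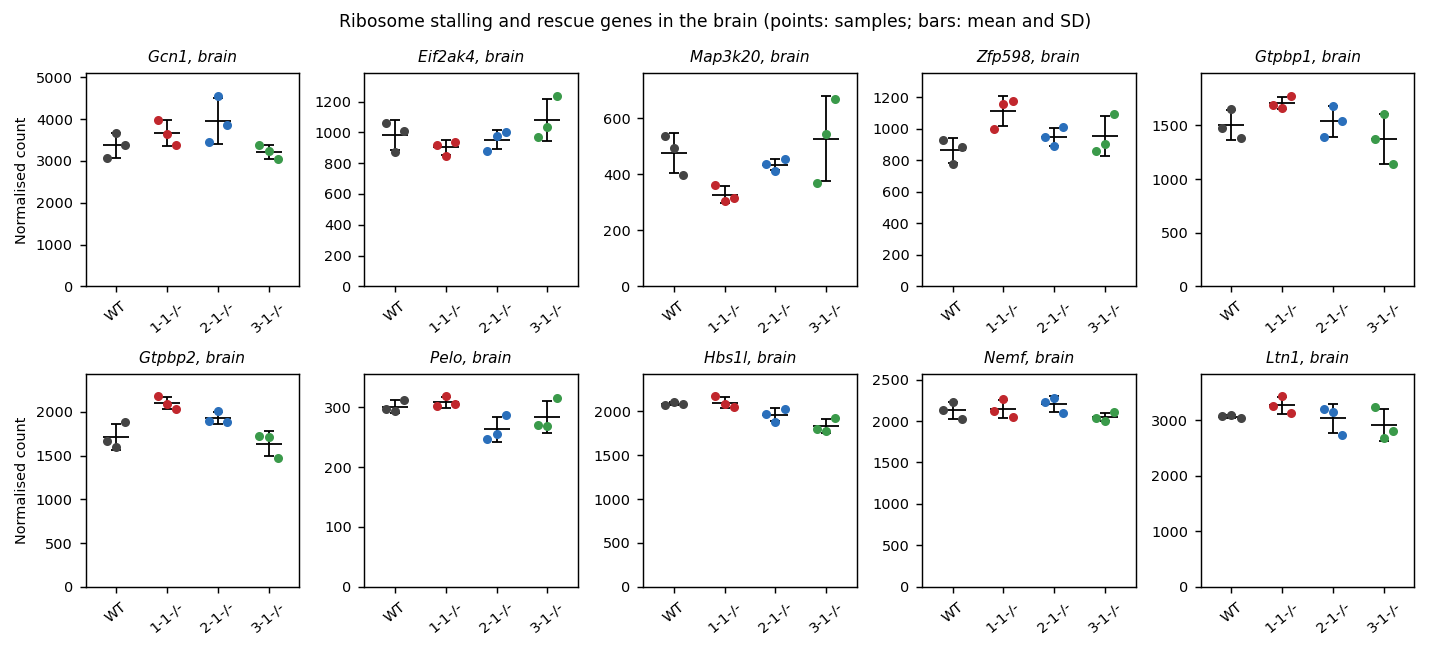
Normalised counts (vertical axes, from 0, one scale per gene) of the 10 genes in the 12 brains by genotype; points are mice and bars the mean and SD of 3. tRNA-Phe-1-1-/- brains lie above WT for Gtpbp1, Gtpbp2, Zfp598 and Ltn1 and below WT for Map3k20, with no comparison against WT at an adjusted p under 0.05.

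Of the factors that act on the nascent chain, Ltn1 (chromosome 16, 87376651 to 87432619, minus strand) had 2170.0, 2166 and 2105 in the closely grouped WT livers. tRNA-Phe-1-1-/- livers had 2882, 2276 and 2806, tRNA-Phe-2-1-/- livers 2431, 2387 and 2796 and tRNA-Phe-3-1-/- livers 2239.9, 2444 and 2499. Every knockout liver was thus above every WT liver, but the 3 comparisons share these WT mice. How many of all genes have such an order was not counted for Ltn1 either. In the single comparisons, 34.8%, 25.4% and 19.9% of all genes did not overlap WT. The log2 difference of 0.30 (95% interval 0.082 to 0.52) in tRNA-Phe-1-1-/- livers had an adjusted p of 0.0597, which became 0.0267 after quantile normalisation, 0.0312 with DESeq2 and 0.0119 without tRNA-Phe-1-1-/- replicate B, the lowest of its group. Only these 3 of 23 alternative analyses called it, and over all of them the adjusted p ran up to 0.199. In livers of tRNA-Phe-2-1-/- and of tRNA-Phe-3-1-/- mice the log2 differences were 0.24 and 0.16, with adjusted p of 0.301 and 0.48. Ltn1 in tRNA-Phe-1-1-/- brains (3129.5 to 3435) was also above WT (3039.6 to 3095), by 0.091 (adjusted p = 0.638).

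Nemf (chromosome 12, 69311541 to 69357201, minus strand) had 1140.2, 1209 and 1274 in WT and 1498, 1306 and 1386 in tRNA-Phe-1-1-/- livers, which did not overlap (0.21 (95% interval -0.061 to 0.48), adjusted p = 0.274). Its brain means were close, from 2049.8 ± 49.8 in tRNA-Phe-3-1-/- to 2203 ± 95.1 in tRNA-Phe-2-1-/- brains (SD, n = 3), and its 3 brain intervals against WT, which are equally wide, all lay between -0.20 and 0.19. Nemf overlaps Klhdc2 on the opposite strand, and Hbs1l and Ltn1 overlap non-coding genes there.

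Counted over the 10 genes, tRNA-Phe-1-1-/- livers had 8 members above and 2 below WT by the mean, with a median log2 difference of 0.25 against -0.0051 over all genes tested. The split was not particular to them. It was also 8 and 2 in tRNA-Phe-2-1-/- livers, tRNA-Phe-3-1-/- livers and tRNA-Phe-1-1-/- brains, but 5 and 5 in tRNA-Phe-2-1-/- and 3 and 7 in tRNA-Phe-3-1-/- brains. In 6 of the 10 the samples of tRNA-Phe-1-1-/- and WT livers did not overlap, against 34.8% of all genes. Beside Pelo, unadjusted p under 0.05 was reached by Gtpbp1, Gtpbp2 and Ltn1, so 4 of 10 against 31.8% of all genes. edgeR on recovered reads called Pelo alone, where it called 17% of all genes, and DESeq2 called Pelo, Gtpbp2 and Ltn1, where it called 21.9%. In tRNA-Phe-2-1-/- livers the median was 0.10 against 0.00090 over all genes, 0 members were significant (0.132% of all genes), 3 had an unadjusted p under 0.05 (Eif2ak4, Ltn1 and Pelo, with 14.9% of all genes) and 4 did not overlap WT (25.4% of all genes). Neither edgeR (0.126% of all genes) nor DESeq2 (3.13%) called a member there. In tRNA-Phe-3-1-/- livers the median was likewise 0.10, against 0.0086, with 0 members significant (0.883% of all genes), 1 with an unadjusted p under 0.05 (Eif2ak4, with 16.1% of all genes) and 2 without overlap (19.9%). There edgeR called 0 (0.883% of all genes) and DESeq2 Eif2ak4 (4.77%). The 3 comparisons share the WT livers. The shares of significant genes rest in part on single libraries. For tRNA-Phe-1-1-/- livers the 17.3% became 9.28% without WT replicate C, 11.3% without WT replicate B and 10.2% without tRNA-Phe-1-1-/- replicate A. For tRNA-Phe-3-1-/- livers the 0.883% became 0.0126% without replicate C and 0.0631% without replicate B of that group, and 0.189%, 0.139% and 0.0252% without WT replicates A, B and C.

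In the brain 0 members were significant in tRNA-Phe-1-1-/- mice, against 1.05% of all 19228 genes tested. That share became 0.385%, 0.135% and 0.026% without WT replicates A, B and C, and 0.125% and 0.0468% without tRNA-Phe-1-1-/- replicates B and C. Gtpbp2, Map3k20 and Zfp598 had an unadjusted p under 0.05 (3 of 10, with 15.9% of all genes), edgeR called 0 (0.973% of all genes) and DESeq2 Gtpbp2 (4.55%). The samples did not overlap WT in 5 of 10 members, against 25.2% of all genes, and the median was 0.062 against -0.00059. tRNA-Phe-2-1-/- brains gave 0 significant members (0% of all genes), 0 with an unadjusted p under 0.05 (5.57% of all genes), 0 by edgeR (0%) and 0 by DESeq2 (0.0988%), and 2 did not overlap (11.4%). tRNA-Phe-3-1-/- brains gave 0 significant members (0% of all genes), 1 with an unadjusted p under 0.05 (Hbs1l, with 12.3% of all genes), 0 by edgeR (0%) and 0 by DESeq2 (1.93%), and 1 did not overlap (16.4%). Medians in these groups were 0.0054 against -0.0016 and -0.066 against 0.0018 over all genes.

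**Figure D4:**
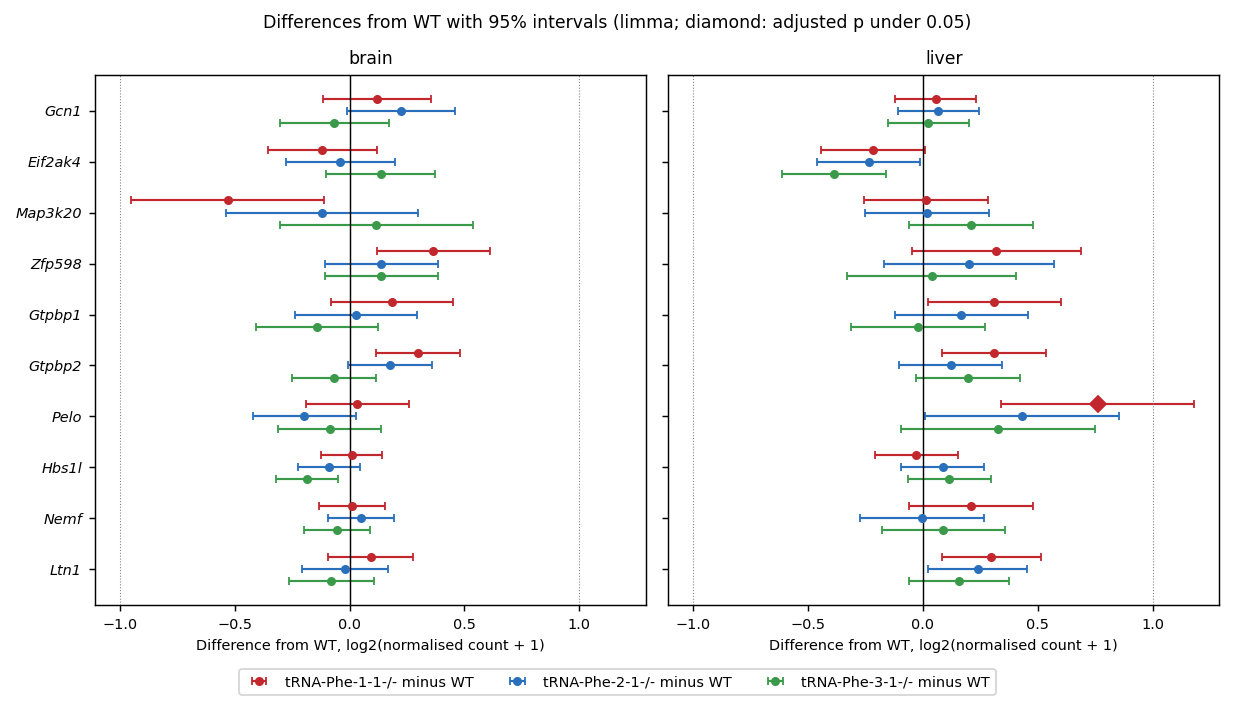
Difference of each knockout from WT in log2(normalised count + 1) (horizontal axes) with its 95% interval from limma, for the 10 genes (rows) in brain and liver; the dotted lines mark 2-fold changes and the diamond the 1 value with an adjusted p under 0.05. Every interval but that of Pelo in tRNA-Phe-1-1-/- livers lies between the dotted lines.

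Between knockouts, 0 of the 60 values were significant in limma. When brains of tRNA-Phe-1-1-/- mice were set against those of tRNA-Phe-3-1-/- mice, 2.11% of all genes were significant, 5 members had an unadjusted p under 0.05 (Eif2ak4, Gtpbp1, Gtpbp2, Hbs1l and Map3k20, with 19.5% of all genes), edgeR called 0 (1.83%) and DESeq2 called 3 (6.77%). The groups did not overlap in 5 members, against 23.5% of all genes. With brains of tRNA-Phe-1-1-/- mice set against those of tRNA-Phe-2-1-/- mice the shares of all genes were 0.53% significant, 13.7% at unadjusted p (Pelo among the members), 0.562% by edgeR and 3.5% by DESeq2, with 0 members called by limma, edgeR or DESeq2 and 4 members without overlap (20.8% of all genes). With brains of tRNA-Phe-2-1-/- mice set against those of tRNA-Phe-3-1-/- mice they were 0%, 9.93% (Gcn1 and Gtpbp2), 0% and 0.863%, with 0 members called and 2 without overlap (12.7% of all genes). In the liver, tRNA-Phe-1-1-/- differed from tRNA-Phe-2-1-/- in 15.9% and from tRNA-Phe-3-1-/- in 16.1% of all genes, yet in 0 members. Unadjusted p under 0.05 was reached by 0 members in the first (31.1% of all genes) and by Gtpbp1 and Pelo in the second (31.3%), with 0 members called by edgeR (15.7% and 16.1%) or DESeq2 (21.2% and 21.8%). Members without overlap numbered 2 (38% of all genes) and 1 (31.8%). Livers of tRNA-Phe-2-1-/- mice differed from those of tRNA-Phe-3-1-/- mice in 0% of genes, with 6.68% at unadjusted p, 0% by edgeR and 0.183% by DESeq2, and with 0 members under each rule or without overlap (12.2% of all genes). A test across the 4 genotypes found 0 members in the brain (0.634% of all genes) and 0 in the liver (17%). Its unadjusted p was under 0.05 for 4 brain members (Gtpbp2, Hbs1l, Map3k20 and Zfp598, with 17.6% of all genes) and 2 liver members (Eif2ak4 and Pelo, with 34.3%). edgeR called 0 in both tissues (0.744% and 17.3% of all genes), while DESeq2 called Gtpbp2 in the brain (8.23%) and Eif2ak4 and Pelo in the liver (28.9%).

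Levels between genes were compared per length, as RPKM values computed over the canonical transcript in WT mice (mean ± SD, n = 3). In the WT brain Gtpbp2 was highest at 16.3 ± 1.52. Nemf (12.7 ± 0.554), Gtpbp1 (12.3 ± 0.951), Ltn1 (11.2 ± 0.310), Hbs1l (10.9 ± 0.226) and Gcn1 (10.4 ± 0.627) followed, each overlapping its neighbour in this order. Zfp598 (7.25 ± 0.871) and Eif2ak4 (5.20 ± 0.646) came next, apart from their neighbours, and Pelo (4.24 ± 0.201) and Map3k20 (4.03 ± 0.658) overlapped at the bottom. In the WT liver the order began with Hbs1l at 12.0 ± 0.733, Zfp598 at 10.3 ± 0.516, Gcn1 at 9.56 ± 0.609 and Gtpbp2 at 8.32 ± 0.342, of which Zfp598 and Gcn1 overlapped. Ltn1 (6.54 ± 0.0446), Nemf (6.01 ± 0.395), Map3k20 (5.86 ± 0.657) and Gtpbp1 (4.41 ± 0.629) followed, and Pelo (3.44 ± 0.474) and Eif2ak4 (2.78 ± 0.132) were lowest. Nemf overlapped Map3k20 there, and Gtpbp1 overlapped Pelo. By these levels the WT brain held 2.79 times as much Gtpbp1 and 1.96 times as much Gtpbp2 as the WT liver, and 0.687 times as much Map3k20. The tissues were normalised separately, so no test was made between them.

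All members carry both phenylalanine codons in the coding sequence of their canonical transcript. The share of codons that encode phenylalanine ran from 2.62% in Gcn1 (70 of 2671 codons) to 4.58% in Ltn1, with a median of 3.64%, against 3.61% over 15650 protein-coding genes tested in either tissue. Pelo stood apart in which codon it uses. Of its phenylalanine codons 1 was TTT and 13 were TTC, so that TTT made up 7.14% of them, a share at percentile 3.94 of those genes. Its partner Hbs1l used TTT for 68.2% (percentile 90.0). The median share of TTT was 41.7% over the members and 42.9% over the tested genes. This describes the coding sequences alone, since only mRNA was measured.

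By likeness of pattern over the 12 samples of a tissue, the protein-coding genes closest to Pelo in the liver were Amd1, Icmt and Fam118b, each with a Pearson r of 0.95 among 11354 genes compared. Amd1 encodes the S-adenosylmethionine decarboxylase of polyamine synthesis and Icmt a methyltransferase of prenylated proteins. Closest to Gtpbp2 in the brain were Mib2, Hsf1 and Csrnp1, each with an r of 0.90 among 13163 genes. Hsf1 is the master regulator of the heat shock response and Mib2 a ubiquitin ligase. These values describe samples that share genotypes and libraries and were picked as the highest of many.

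The 49 other genes of these pathways fell into 8 lists by function, and all 49 were tested in both tissues. In tRNA-Phe-1-1-/- livers 3 rose and 1 fell (17.3% of all genes were significant), with a median log2 difference of 0.021 over the list against -0.0051 over all genes. Of the 4 genes for termination and recycling, 2 rose: Abce1, the ATPase that splits ribosomes with Pelo, and Etf1, which encodes the termination factor eRF1. Etf1 had 2991, 2903 and 2697 in WT and 3849, 3812 and 3599.9 in tRNA-Phe-1-1-/- livers, without overlap (0.39 (95% interval 0.21 to 0.57), adjusted p = 0.0078). Abce1 had 3539.8, 3016 and 3051 in WT and 3965, 3826 and 3831 in tRNA-Phe-1-1-/- livers, also without overlap (0.28 (95% interval 0.10 to 0.45), adjusted p = 0.0347). The call on Abce1 was lost in 11 of its 23 alternative analyses, among them those without WT replicate B or C, without any 1 of the tRNA-Phe-1-1-/- livers and without tRNA-Phe-2-1-/- replicate B or C (adjusted p from 0.0501 to 0.124). The other genes of that list, Gspt1 and Gspt2, encode forms of eRF3.

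In the list of 7 kinases around Map3k20, Mapk14, which encodes p38α, rose and Map2k7, which encodes the JNK-activating kinase MKK7, fell in tRNA-Phe-1-1-/- livers. Mapk14 had 2599, 2363 and 2401 in WT and 3214, 3239 and 3536 in knockout livers (0.44 (95% interval 0.28 to 0.60), adjusted p = 0.00261). Map2k7 had 1006, 1203 and 1157 in WT and 760.4, 838 and 731 in knockout livers (-0.53 (95% interval -0.75 to -0.31), adjusted p = 0.00512). Both groups lay apart for each gene. None of the 10 genes for collision ubiquitination, the 3 of the ASC-1 complex, the 3 for translational silencing, the 6 for mRNA decay, the 8 for nascent-chain handling or the 8 around Gcn1 and Eif2ak4 was significant there. At an unadjusted p under 0.05 these lists held 3, 0, 0, 1, 1 and 2 genes. Over all related genes that rule held 12 of 49, against 31.8% of all genes. edgeR called the same 4 genes, against 17%, and DESeq2 8, against 21.9%. Shares at or below those of all genes are no result about these lists.

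In tRNA-Phe-3-1-/- livers 2 related genes fell (0.883% of all genes were significant). Rnf10, a ubiquitin ligase that marks the small subunit, had 2568, 2364 and 2539 in WT and 1902, 1594 and 1825 in knockout livers (-0.49 (95% interval -0.67 to -0.31), adjusted p = 0.0297). Gigyf1, which represses translation of the stalled mRNA with the cap-binding protein 4EHP, had 498, 556 and 558 in WT and 337, 298 and 294 in knockout livers (-0.79 (95% interval -1.11 to -0.47), adjusted p = 0.0353). Neither overlapped WT. Both calls were lost together in 10 of the 23 alternative analyses, among them those without any 1 of the 3 WT livers and those without replicate B or C of tRNA-Phe-2-1-/- or of tRNA-Phe-3-1-/-. Over these left-out replicates the adjusted p ran from 0.0501 to 0.119 for Rnf10 and from 0.0572 to 0.148 for Gigyf1. In tRNA-Phe-2-1-/- livers, where 0 of 49 were significant (0.132% of all genes), Rnf10 at 1957, 1831 and 1896 and Map2k3, a p38-activating kinase, at 808, 733 and 856 against 1221, 1179 and 1089.6 in WT had the lowest p, with differences of -0.39 and -0.54 and adjusted p of 0.0785 and 0.0941. In that comparison 8 of 49 had an unadjusted p under 0.05 (14.9% of all genes), edgeR called 0 (0.126%) and DESeq2 Map2k3 and Rnf10 (3.13%). In tRNA-Phe-3-1-/- livers 8 of 49 had such a p (16.1% of all genes). There edgeR called Gigyf1 and Rnf10 (0.883%) and DESeq2 called Gigyf1, Map2k3 and Rnf10 (4.77%).

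**Figure D5:**
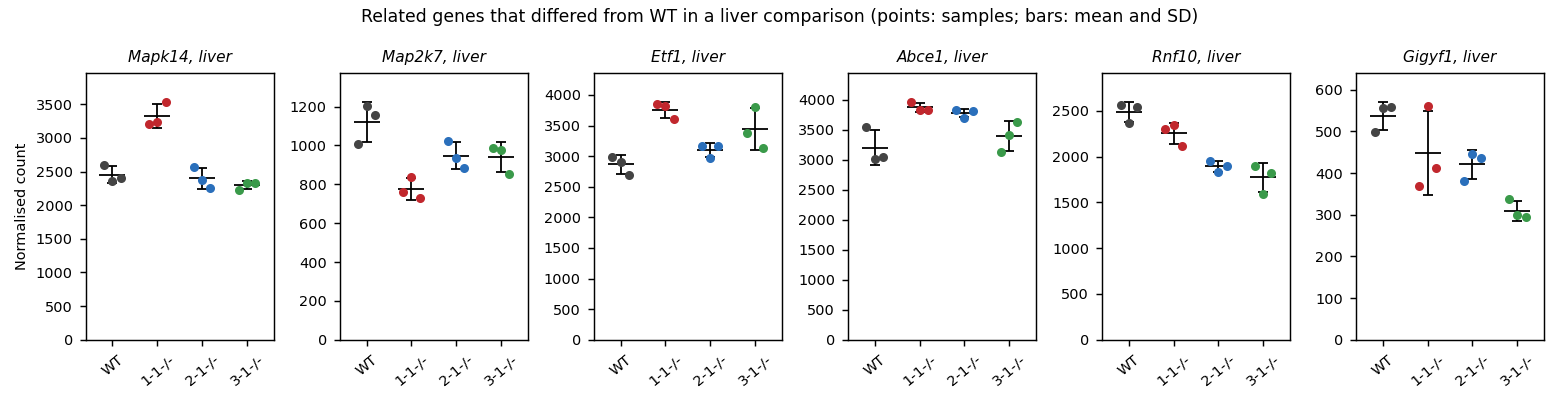
Normalised counts (vertical axes, from 0, one scale per gene) in the 12 livers by genotype for the 6 related genes with an adjusted p under 0.05 in a knockout against WT comparison; points are mice and bars the mean and SD of 3. Mapk14, Etf1 and Abce1 are higher and Map2k7 lower in tRNA-Phe-1-1-/- than in WT livers, and Rnf10 and Gigyf1 are lower in tRNA-Phe-3-1-/- livers.

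No related gene was significant in the brain. In tRNA-Phe-1-1-/- brains 6 of 49 had an unadjusted p under 0.05 (15.9% of all genes), edgeR called 0 (0.973%) and DESeq2 0 (4.55%). The lowest p were those of Map2k3 (149.7, 148 and 205 in WT, 296, 219 and 226 in knockout brains, 0.56, adjusted p = 0.149) and Gspt2 (0.28, adjusted p = 0.161). In tRNA-Phe-2-1-/- brains 2 of 49 had an unadjusted p under 0.05 (5.57% of all genes), Skic2, the helicase of the Ski complex (1775, 1989 and 1887 in WT, 2215, 2480.3 and 2734 in knockout brains, 0.39, adjusted p = 0.887), and Eif2ak2, the kinase PKR (0.60, adjusted p = 0.892). edgeR called 0 there (0% of all genes) and DESeq2 Skic2 (adjusted p = 0.0393, with 0.0988% of all genes called). In tRNA-Phe-3-1-/- brains 6 of 49 had an unadjusted p under 0.05 (12.3% of all genes), edgeR called 0 (0%) and DESeq2 0 (1.93%), and the lowest p were those of Gspt2 (0.24, adjusted p = 0.325) and Mapk14 (-0.31, adjusted p = 0.33).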

How the data were processed

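Total RNA was sequenced from brain and liver of 3 WT and 3 mice of each knockout, which the study describes as separate animals. The authors trimmed the reads, aligned them with STAR to GRCm38.p6 with nuclear copies of mitochondrial DNA masked, estimated strand-specific counts with Salmon and GENCODE vM24, summed them by gene with tximport and divided them by DESeq2 size factors within each tissue. The deposited signal is these normalised counts. Their comparison tables (mean, log2 fold change, its error and s-value) were not used.

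limma 3.58.1 in R 4.3.3 was fitted to log2(normalised count + 1) over the 12 samples of a tissue, with a variance trend, for genes with a mean of at least 10, and p-values were adjusted by Benjamini-Hochberg over all genes tested (threshold 0.05). Dividing by each column's smallest step recovered whole reads for 100% of values (tolerance 0.001), and edgeR 4.0.16 and DESeq2 1.42.0 were run on these as alternatives, with other pseudocounts, filters, scaling and each replicate left out. The scripts were tested on simulated data. Members, lists and the rule for named genes (all members, related genes past the threshold against WT, up to 6 a comparison, or, where none passed, the 2 with the lowest p, and the 3 protein-coding genes with a mean of at least 50 that were most like the member with the lowest p in each tissue) were chosen with earlier results of these data known. Sequences and positions are from RefSeq for GRCm38.p6, and transcript lengths, overlaps and codons from a later GENCODE release. Precision is limited by 3 mice per group. Brains of tRNA-Phe-2-1-/- mice and same-letter brains of tRNA-Phe-3-1-/- mice deviated together (correlations of 0.132, 0.205 and 0.492), a pairing seen in the data and not stated by the labels. In that contrast 0 genes were significant with or without the letter as a block. In no other contrast did all 3 letters pass 0.1.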

Additional observations from a re-analysis of the deposited data

Results flagged for a closer look

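Pelo in tRNA-Phe-2-1-/- mice differed from WT in opposite directions in the tissues. In the brain each knockout sample was below each WT sample, at a log2 difference of -0.20, and in the liver each was above, at 0.43. Of all genes, 11.4% did not overlap WT in these brains and 25.4% in these livers. How many did so in opposite directions was not counted. Neither difference had an adjusted p under 0.05 in limma, and the difference between the tissues was not tested, since they were normalised separately.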

How the results depend on the processing

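Of 3082 log2 differences recomputed under the 23 alternatives per tissue, 3028 kept their side of the threshold, 34 lost it, 20 gained it and 0 significant ones changed direction. With DESeq2 on recovered reads, significant members numbered 1 in brain across genotypes (8.23% of all genes) and 1 in tRNA-Phe-1-1-/- against WT brains (4.55%). They numbered 3 for tRNA-Phe-1-1-/- brains set against those of tRNA-Phe-3-1-/- mice (6.77%). In the liver they numbered 2 across genotypes (28.9%), 3 in tRNA-Phe-1-1-/- against WT (21.9%) and 1 in tRNA-Phe-3-1-/- against WT (4.77%). Related genes called by DESeq2 against WT numbered 1 in tRNA-Phe-2-1-/- brains (0.0988% of all genes). In livers they numbered 8 in tRNA-Phe-1-1-/- (21.9%), 2 in tRNA-Phe-2-1-/- (3.13%) and 3 in tRNA-Phe-3-1-/- mice (4.77%). A pseudocount of 5 and a minimum mean of 50 each gave 1 member in that contrast of brains, and quantile normalisation 2 in tRNA-Phe-1-1-/- against WT livers. With only the 2 groups compared, related genes numbered 2 in tRNA-Phe-2-1-/- and 0 in tRNA-Phe-3-1-/- livers, and 0 in the latter without a variance trend. Leaving out 1 replicate, members ranged from 0 to 1 in that contrast and for liver across genotypes, and from 0 to 2 for tRNA-Phe-1-1-/- livers against WT and against tRNA-Phe-3-1-/-. Related genes ranged from 3 to 7 in tRNA-Phe-1-1-/- and 0 to 2 in tRNA-Phe-3-1-/- livers. The cause of these shifts was not tested.

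The replicate letters were tested as a replicate block in every comparison. The block ended 3 calls of related genes and no call of a member: Abce1 in tRNA-Phe-1-1-/- livers (adjusted p = 0.0611) and Rnf10 and Gigyf1 in tRNA-Phe-3-1-/- livers (0.0601 and 0.0661), where 0 related genes were left. Over all genes, calls went from 140 to 9 in tRNA-Phe-3-1-/- livers, from 21 to 1 in tRNA-Phe-2-1-/- livers and from 122 to 66 in brain across genotypes. All 3 same-letter correlations of deviations exceeded 0.1 for 1 contrast only, tRNA-Phe-2-1-/- with tRNA-Phe-3-1-/- brains.

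Leaving out 1 replicate moved the share of all genes called over ranges of 0.026% to 1.29% in tRNA-Phe-1-1-/- brains, 9.28% to 18.1% in tRNA-Phe-1-1-/- livers, 0% to 0.259% in tRNA-Phe-2-1-/- livers and 0.0126% to 1.34% in tRNA-Phe-3-1-/- livers, each against WT.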
